A study of Homo sapiens with 12 samples.

Results

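The CDC25 phosphatases and the CDK1 switch are described here by 9 genes, chosen by symbol from the 14828 genes of the deposited RNA-seq table: CDC25A, CDC25B, CDC25C, WEE1, PKMYT1, CDK1, PLK1, CKS1B and CKS2. All 9 were in the table and all 9 passed the filter on low values, as did 14624 genes in all. CDC25C is a gene of this set for which the study showed CENPA at the transcriptional start site. That came from genome-wide ChIP-seq of VCaP, another prostate cancer cell line than the one used here. The changes of the other 8 are set beside that of CDC25C. Whether CENPA is at any of the 9 genes in the cells used here was not tested.

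The cells were 22Rv1, an established human prostate carcinoma cell line, made by lentiviral transduction and puromycin selection to carry a doxycycline-inducible shRNA. There were 3 groups: cells with a nontargeting shRNA (shNT) and cells with either of 2 shRNAs against CENPA, the histone H3 variant of centromeres (shCENPA1 and shCENPA2). Every group, shNT included, carried the inducible vector and was induced for 72 h with 2 µg/ml doxycycline, and no cells without doxycycline were compared. Each group has 2 libraries, sequenced in lanes 7 and 8, and the lanes of a library were averaged, so n = 2 throughout. The labels do not say whether the libraries of a group came from separate cultures, so the p-values measure the spread between libraries, which may be technical.

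CDK1 with a B-type or A-type cyclin is the kinase that drives cells into mitosis. Before mitosis WEE1 in the nucleus and PKMYT1 (MYT1) at membranes of the endoplasmic reticulum and Golgi hold it inactive by phosphorylating its ATP-binding loop, and the dual-specificity phosphatases CDC25A, CDC25B and CDC25C remove these phosphates. Active CDK1 in turn activates CDC25C and turns off WEE1, which makes the transition switch-like, and the polo kinase PLK1 acts on both in the same direction. CKS1B and CKS2 are small adaptors that bind CDK1 and help it phosphorylate targets that are already phosphorylated. Much of this control acts on the proteins, whereas only mRNA was measured here, and several of these mRNAs are themselves periodic in the cell cycle.

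The libraries held 79172294 to 133074655 reads on genes, and the 9 genes rested on 362 to 11965 reads in a library. Levels are in RPKM, which is reads scaled to a single length per gene and to library size. CENPA, the targeted gene, was lower with both shRNAs. It was at 5.52 and 4.54 RPKM with shNT, 1.42 and 1.50 with shCENPA1 and 0.720 and 0.755 with shCENPA2. Its log2 fold change was -1.78 ± 0.16 (SE) and -2.76 ± 0.16. In the table were 8 of 8 markers of prostate luminal cells and 1 of 8 markers of basal, stromal, endothelial and blood cells (COL1A1, -0.07 to 0.37 log2 RPKM). CDK1, PLK1 and the cyclins are expressed by cycling cells of any type. In these bulk libraries a smaller share of cells in G2 and mitosis cannot be told apart from less mRNA per cell.

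All 9 mRNAs were lower with both shRNAs, and for all 9 the 4 knockdown libraries lay below both shNT libraries, which held for 20.5% of the genes tested. With limma, 9 of 9 passed lower at an adjusted p under 0.05 with shCENPA1 (4.45% of all genes) and 9 of 9 with shCENPA2 (10.5%). Genes are called lower here if the fold change was also over 2. By that rule 6 of 9 were called lower with shCENPA1, where 1.83% of all genes were, and 7 of 9 with shCENPA2, where 4.45% were. The same 6 genes, CDC25A, CDC25C, PKMYT1, CDK1, PLK1 and CKS2, were called with both (1.7% of all genes). CDC25B and CKS1B were called with neither, and WEE1 with shCENPA2 only. The median log2 fold change of the 9 was -1.07 with shCENPA1 and -1.41 with shCENPA2, beside 0.003 and 0.01 over all genes tested. Both comparisons share the shNT libraries.

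**Figure D1:**
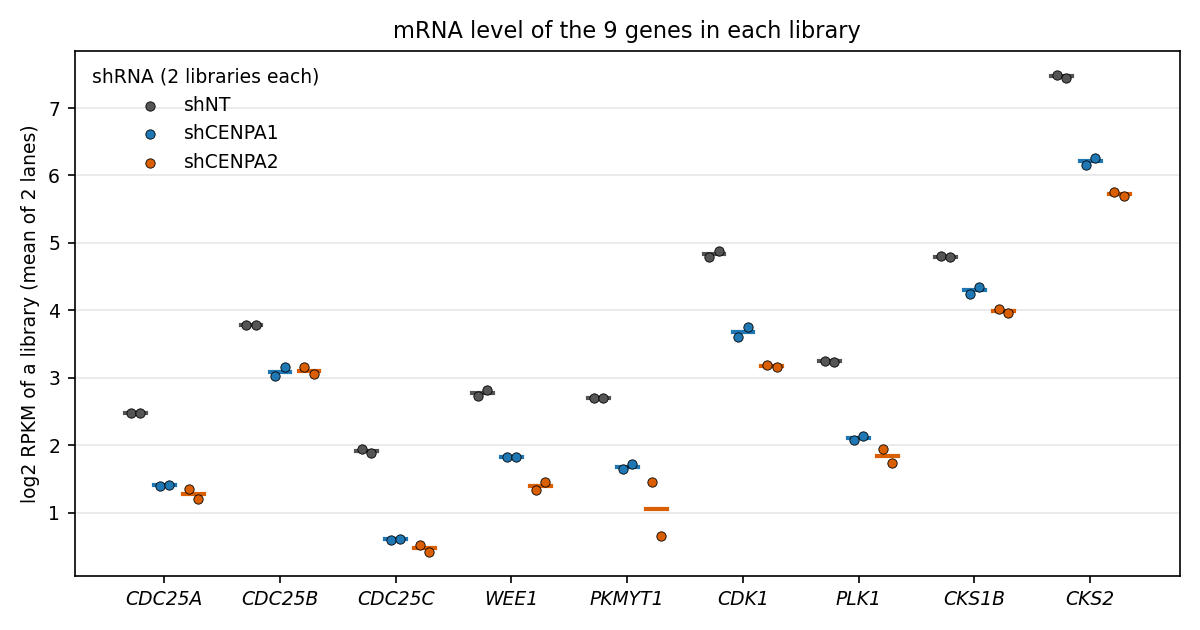
Log2 RPKM of the 9 genes (y axis) in each of 6 libraries, as points for shNT, shCENPA1 and shCENPA2, with a line at the mean of the 2 libraries. Every gene is highest in the shNT libraries, and PKMYT1 has the widest gap between libraries of a group, 1.46 and 0.65 with shCENPA2.

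In shNT cells the 9 mRNAs covered a wide range of RPKM. The order of the genes depends on the single length used for each, from 613 bases for CKS2 to 9239 for WEE1. These lengths may differ from those of the transcripts present. CKS2 was the highest at 7.47 ± 0.03 log2 RPKM (SD, n = 2). CDK1 at 4.84 ± 0.06 and CKS1B at 4.80 ± 0.01 followed, and their libraries overlapped. CDC25B (3.78 ± 0.01) and PLK1 (3.25 ± 0.01) came next. WEE1 (2.77 ± 0.07) and PKMYT1 (2.70 ± 0.002), which act on the same substrate, were close to each other, with both WEE1 libraries (2.72 and 2.82) above both PKMYT1 libraries (2.70 and 2.70). CDC25A (2.48 ± 0.01) and CDC25C (1.92 ± 0.04) were the lowest. CDC25C thus had the lowest RPKM of the set, and also the fewest reads (1265 and 954 with shNT). With shCENPA2 the order was no longer the same, since CDK1, level with CKS1B in shNT cells, lay at 9.09 and 8.96 RPKM and CKS1B at 16.2 and 15.5.

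Of the phosphatases, CDC25C and CDC25A fell more than 2-fold with both shRNAs and CDC25B fell less than that. With 1 added to RPKM neither of the first pair was past 2-fold with either shRNA (CDC25C -0.92 and -0.9985, CDC25A -0.85 and -0.94). CDC25C, which acts at mitotic entry, lies on the minus strand at chr5:138285269-138338355 (GRCh38, GENCODE 44). It was at 3.84 and 3.70 RPKM with shNT, at 1.52 and 1.52 with shCENPA1 and at 1.44 and 1.34 with shCENPA2. The knockdown libraries were thus close to each other and far from shNT. Its log2 fold change was -1.31 ± 0.14 (SE, adjusted p = 0.000696) with shCENPA1 and -1.44 ± 0.14 (adjusted p = 0.000153) with shCENPA2, a decrease of 59.7% and 63.2%. Counted from the most lowered gene, this was rank 106 and rank 322 of 14624.

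CDC25A, which also activates CDK2 at the start of S phase, is at chr3:48157146-48188417 on the minus strand. Its level was 5.59 and 5.56 RPKM with shNT, 2.65 and 2.67 with shCENPA1 and 2.56 and 2.30 with shCENPA2. The log2 fold changes were -1.07 ± 0.13 (adjusted p = 0.000968) and -1.20 ± 0.13 (adjusted p = 0.000217). CDC25B, held to start CDK1 activation at the centrosome, is at chr20:3786772-3806121 on the plus strand and had the highest RPKM of the 3. It was at 13.8 and 13.7 RPKM with shNT, 8.13 and 8.97 with shCENPA1 and 8.91 and 8.30 with shCENPA2, and the libraries of both CENPA shRNAs overlapped. Its decrease was 38.0% with shCENPA1 (log2 fold change -0.69 ± 0.10, adjusted p = 0.00298) and 37.5% with shCENPA2 (-0.68 ± 0.10, adjusted p = 0.00152).

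**Figure D2:**
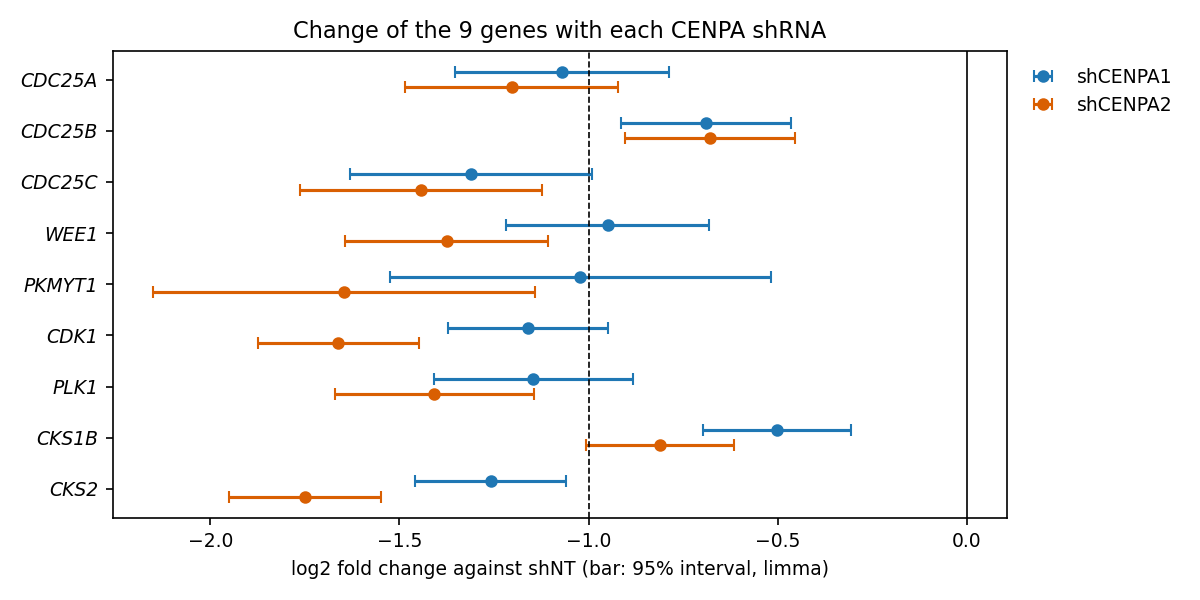
Log2 fold change against shNT (x axis) of the 9 genes with shCENPA1 and shCENPA2, as points with 95% intervals from limma; the dashed line marks a 2-fold decrease. All 18 intervals lie below 0, and the points of CDC25B and CKS1B lie to the right of the dashed line with both shRNAs.

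The inhibitory kinases, which oppose CDC25, fell as well. WEE1 (chr11:9573670-9593457, plus strand) was at 6.61 and 7.04 RPKM with shNT, 3.53 and 3.53 with shCENPA1 and 2.52 and 2.75 with shCENPA2. The log2 fold change was -0.95 ± 0.12 (adjusted p = 0.00147) with shCENPA1 and -1.38 ± 0.12 (adjusted p = 7.46e-05) with shCENPA2. PKMYT1 (chr16:2968024-2980479, minus strand) was at 6.52 and 6.50 RPKM with shNT, 3.13 and 3.29 with shCENPA1 and 2.76 and 1.57 with shCENPA2. Its shCENPA2 libraries stood apart from each other, with both lanes of a library alike, and had the largest SD of any gene and group in the set (0.58 log2). The log2 fold change was -1.02 ± 0.22 (adjusted p = 0.0248) with shCENPA1 and -1.65 ± 0.22 (adjusted p = 0.000981) with shCENPA2. With shCENPA2 it was -2.05 without library 1 and -1.24 without library 2. With shCENPA1 the call was lost without shNT library 2 (adjusted p = 0.0511) and without shCENPA1 library 1 (0.132) or 2 (0.179).

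CDK1 and PLK1, the activating kinases of the set, were called lower with both shRNAs. CDK1 (chr10:60778331-60794852, plus strand) was at 27.7 and 29.5 RPKM with shNT, 12.1 and 13.4 with shCENPA1 and 9.09 and 8.96 with shCENPA2, in 3 separate steps. Its log2 fold change was -1.16 ± 0.09 (adjusted p = 0.000191) and then -1.66 ± 0.09 (adjusted p = 9.87e-06), a decrease of 55.3% and 68.4%. PLK1 (chr16:23677656-23690367, plus strand) was at 9.56 and 9.46 RPKM with shNT, 4.21 and 4.38 with shCENPA1 and 3.85 and 3.33 with shCENPA2. The log2 fold changes of PLK1 were -1.15 ± 0.12 (adjusted p = 0.000505) and -1.41 ± 0.12 (adjusted p = 5.81e-05).

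The adaptors CKS1B and CKS2, close relatives that both bind CDK1, did not move by the same amount. CKS2 (chr9:89311195-89316703, plus strand) was at 180.4 and 174.9 RPKM with shNT, 71.6 and 77.0 with shCENPA1 and 54.0 and 51.7 with shCENPA2. Its log2 fold changes were -1.26 ± 0.09 (adjusted p = 9.98e-05) and -1.75 ± 0.09 (adjusted p = 6.3e-06), the latter the largest decrease of the 9 genes with shCENPA2. CKS1B, which also serves the SKP2 ubiquitin ligase that degrades p27, is at chr1:154974653-154979251 on the plus strand. It was at 28.0 and 27.7 RPKM with shNT, 19.0 and 20.3 with shCENPA1 and 16.2 and 15.5 with shCENPA2. The log2 fold changes of CKS1B were -0.50 ± 0.09 (adjusted p = 0.00813) and -0.81 ± 0.09 (adjusted p = 0.00025). With shCENPA1 it did not pass without shNT library 1 (adjusted p = 0.0898) or 2 (0.0904). GENCODE lists 7 pseudogenes of CKS1B and 2 of WEE1. How reads that match several places were counted is not given in the sources used here, which adds uncertainty to the values of both genes. Pseudogenes of the other genes of the set were not counted. Genes on the opposite strand overlap CDC25A (NDUFB1P1, RNU7-128P and SNRPFP4), CDC25C (FAM53C), PKMYT1 (PAQR4 and KREMEN2) and PLK1 (ERN2 and ENSG00000261266); the libraries were strand-specific, but the strand setting of the counting is not stated.

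To ask how specific the fall of CDC25C was, the change of each of the other 8 genes was set against that of CDC25C in the same libraries, with limma and adjustment over all genes. Among all genes 96.1% with shCENPA1 and 94.9% with shCENPA2 differed from CDC25C by this test, and of the 8 it was 3 with each shRNA. The shares over all genes follow from the fall of CDC25C itself, as the median log2 fold change of all genes was 0.003 and 0.01. They do not show how specific that fall was. With so many genes passing, the adjustment changed the p-values little. The unadjusted limma p was 0.0241 for WEE1 with shCENPA1 and 0.0121 for CKS2 with shCENPA2. CDC25B and CKS1B fell less than CDC25C with both shRNAs. For CDC25B the difference was 0.62 (95% interval 0.38 to 0.86) with shCENPA1 and 0.76 (0.53 to 1.00) with shCENPA2, on the log2 scale. For CKS1B it was 0.81 (0.59 to 1.03) and 0.63 (0.41 to 0.85). With 1 added to RPKM these calls held at smaller differences, 0.29 and 0.38 for CDC25B and 0.44 and 0.22 for CKS1B. WEE1 fell less than CDC25C with shCENPA1 by 0.36 (0.06 to 0.67, adjusted p = 0.0254), a call lost when any one shNT or shCENPA1 library was left out (adjusted p of 0.0605 to 0.204) and with 1 added (0.252). CKS2 fell more than CDC25C with shCENPA2 by 0.31 (-0.31, interval -0.53 to -0.08, adjusted p = 0.013), and this call was lost without shNT library 1 (0.1) or 2 (0.106).

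For the other genes the test was not passed, and the intervals show what these libraries allow. CDC25A differed from CDC25C by 0.24 with both shRNAs (intervals -0.05 to 0.53). For PLK1 the differences were 0.16 (-0.10 to 0.43) and 0.03 (-0.23 to 0.30). CDK1 was at 0.15 (-0.09 to 0.39) with shCENPA1 and -0.22 (-0.46 to 0.02) with shCENPA2, and the latter passed with 0.1 added to RPKM (-0.27, adjusted p = 0.0296) or 1 added (-0.56, adjusted p = 0.000143). PKMYT1 was at 0.29 (-0.15 to 0.73) and -0.20 (-0.64 to 0.24). The first passed without shCENPA2 library 1 (adjusted p = 0.0342) or 2 (0.0308), and the second went to 0.15 without shCENPA2 library 2 and to -0.56 (adjusted p = 0.00386) without library 1. These differences all share the CDC25C values.

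**Figure D3:**
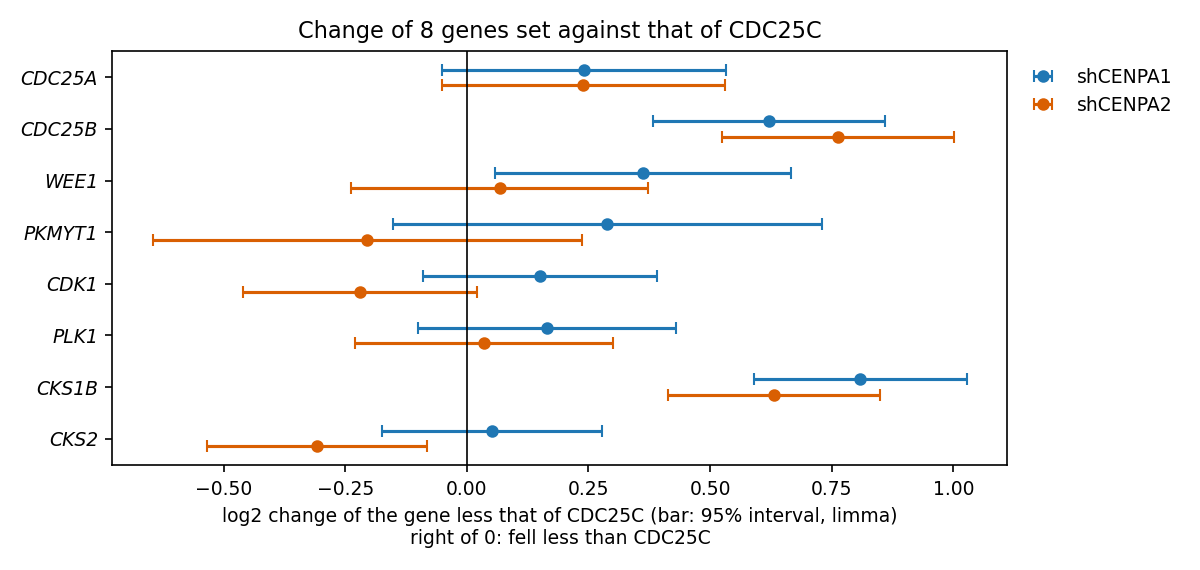
Log2 change of 8 genes less that of CDC25C (x axis) with shCENPA1 and shCENPA2, as points with 95% intervals from limma; points right of 0 fell less than CDC25C. CDC25B and CKS1B lie right of 0 with both shRNAs, and both intervals of CDC25A and PLK1 span 0.

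Ratios within a library do not depend on how the libraries were scaled to each other. Their size does depend on the length used for each gene, which was the same in every library. In shNT cells CDC25B made up 59.4% and 59.7% of the summed RPKM of the CDC25 genes, CDC25A 24.1% and 24.2% and CDC25C 16.5% and 16.1%. The share of CDC25C was 12.4% and 11.6% with shCENPA1 and 11.1% and 11.2% with shCENPA2. The share of CDC25B was 66.1% and 68.2% with shCENPA1 and 69.1% and 69.5% with shCENPA2. All 4 knockdown libraries thus lay on one side of both shNT libraries (exact two-sided permutation test, p = 0.0667 for each share, the smallest that 4 against 2 libraries can give, so that no p under 0.05 was possible).

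The phosphatases summed were set against WEE1 and PKMYT1 summed. The log2 ratio was 0.83 and 0.76 with shNT, 0.88 and 0.95 with shCENPA1 and 1.29 and 1.47 with shCENPA2. It was higher in all 4 knockdown libraries, by 0.35 on average (exact two-sided permutation p = 0.133, where 0.0667 was the smallest possible). CDC25B supplied most of the phosphatase sum in every library. The log2 ratio of CKS1B to CKS2 was -2.69 and -2.66 with shNT, -1.92 and -1.92 with shCENPA1 and -1.74 and -1.73 with shCENPA2 (exact two-sided permutation p = 0.0667). Libraries of a group differed in this ratio by far less than the groups.

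**Figure D4:**
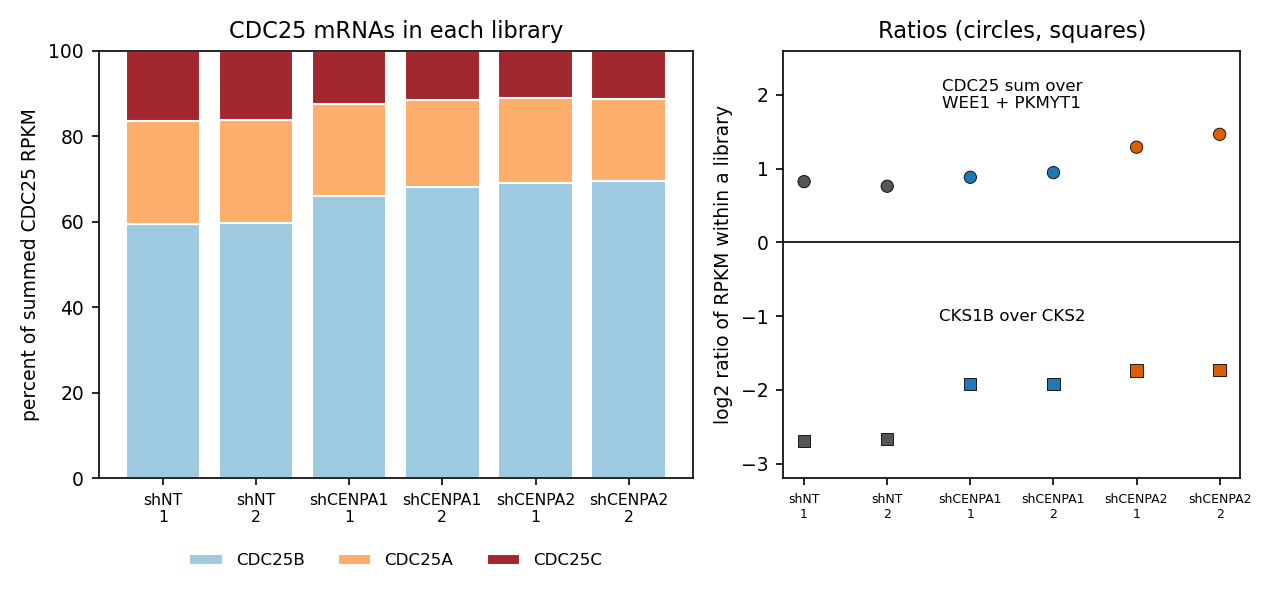
Left, percent of the summed RPKM of CDC25A, CDC25B and CDC25C in each of 6 libraries; right, log2 ratios of RPKM in each library, as circles for the CDC25 sum over WEE1 and PKMYT1 and squares for CKS1B over CKS2. The CDC25C share is 16.5% and 16.1% with shNT and 11.1% to 12.4% in the knockdown libraries, and both ratios are higher in all 4 knockdown libraries.

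The shRNAs were also compared with each other, and 2 of the 9 genes passed that test. For 8 of 9 genes both shCENPA2 libraries lay below both shCENPA1 libraries, the exception being CDC25B, and so they did for 20.2% of the genes tested. By the test of the difference, CDK1 (shCENPA2 less shCENPA1, log2 -0.50 ± 0.09, adjusted p = 0.0364) and CKS2 (-0.49 ± 0.09, adjusted p = 0.0329) passed lower, as did 1.03% of all genes, and no gene of the 9 was also past 2-fold lower (0.554% of all genes). At an unadjusted p under 0.05, 5 of the 9 were lower, as were 7.84% of all genes. Both calls were lost when any one library was left out. The differences of CDC25A (-0.13, 95% interval -0.41 to 0.15) and CDC25C (-0.13, -0.45 to 0.19) did not pass. CENPA itself was lower with shCENPA2 than with shCENPA1 by 0.98 on the log2 scale (adjusted p = 0.0209). Whether the deeper knockdown of CENPA has a part in this was not tested.

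Around the switch, the cyclin partners of CDK1 fell with it. Of 4, the cyclins CCNA2, CCNB1 and CCNB2 were called lower with both shRNAs, with log2 fold changes of -1.11 to -1.28 with shCENPA1 and -1.40 to -1.63 with shCENPA2. CCNB3 did not pass (0.51 and 0.11). Among 5 activators, AURKA, which phosphorylates PLK1, passed lower (-0.89 ± 0.10 and -1.02 ± 0.10), and so did its cofactor BORA (-0.81 ± 0.19 and -1.14 ± 0.19), both called with shCENPA2. The subunits of the CDK-activating kinase, CDK7, CCNH and MNAT1, lay between -0.09 and 0.15 and did not pass with either shRNA.

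Of 7 genes of the Greatwall pathway, which holds back the phosphatase that opposes CDK1, MASTL (Greatwall kinase) passed lower with both shRNAs (-0.99 ± 0.14 and -1.23 ± 0.14). ENSA, ARPP19 and the 4 phosphatase subunits in the list lay between -0.22 and 0.30 and did not pass. Of 13 checkpoint kinases, CDK inhibitors and 14-3-3 proteins, which restrain CDC25 or CDK1, CHEK1 was called lower with both (-1.01 ± 0.12 and -1.20 ± 0.12) and CHEK2 passed with both (-0.51 and -0.84). CDKN1A passed lower with shCENPA1 (-0.47), SFN with shCENPA2 (-0.59), and YWHAH passed higher with shCENPA2 (0.68 ± 0.09, adjusted p = 0.000816), as did 8.05% of all genes. ATR and ATM did not pass with either shRNA.

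Of 6 ubiquitin ligase genes, CDC20 passed lower with both (-0.90 ± 0.12 and -1.48 ± 0.12) and BTRC, FBXW11, SKP1, CUL1 and FZR1 did not. Of 6 other cycle CDKs and polo kinases, PLK4, the kinase of centriole duplication, was called lower with both (-1.17 ± 0.13 and -1.54 ± 0.13). CDK2 passed with both (-0.70 ± 0.08 and -1.001 ± 0.08), and PLK2 passed higher with shCENPA2 (0.54 ± 0.12). CDK4, CDK6 and PLK3 did not pass with either.

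In a list of 14 genes of G2 and mitosis, 14 of 14 were called lower with both shRNAs (1.7% of all genes), with medians of -1.33 and -1.65. The change of CDC25C lay inside the range of this list, which was chosen with earlier results of these data known. The range ran from -1.16 (KIF20A) to -1.45 (HMMR) with shCENPA1 and from -1.35 (CENPE) to -1.80 (HMMR) with shCENPA2. The list holds TOP2A (-1.34 and -1.71), which the paper names, like CDC25C, as bound by CENPA in VCaP and lowered on depletion. It is thus not a list of genes free of CENPA. In a list of 14 genes of G1 and S phase, 5 were called lower with shCENPA1 (1.83% of all genes) and 10 with shCENPA2 (4.45%), with medians of -0.93 and -1.27. Without the rule on fold change, 12 of these passed lower with shCENPA1 (4.45% of all genes) and 13 with shCENPA2 (10.5%). CDC6 (-1.17 and -1.62) and RRM2 (-1.246 and -1.711) were among those that fell the most, and CCNE1 did not pass (-0.13 and 0.17).

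**Figure D5:**
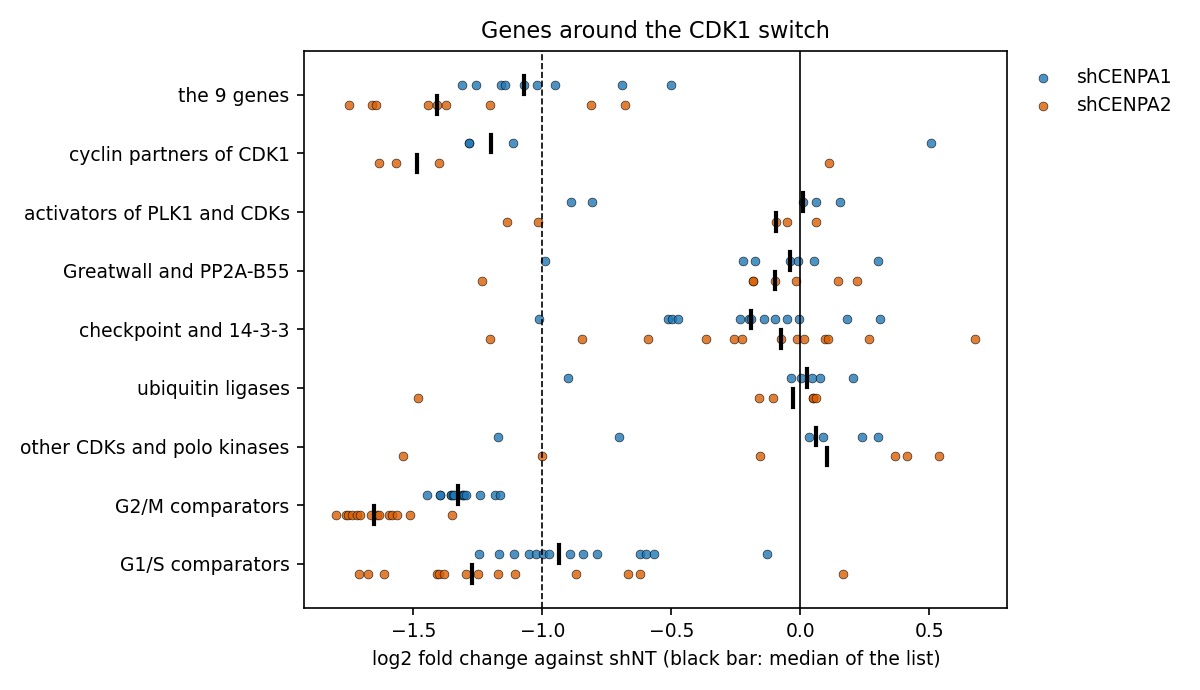
Log2 fold change against shNT (x axis) of each gene of 9 lists with shCENPA1 and shCENPA2, as points, with a black bar at the median of the list; the dashed line marks a 2-fold decrease. All 14 G2/M genes lie left of the dashed line with both shRNAs, whereas most genes of the 5 middle lists lie near 0.

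The genes with the pattern most like that of CDC25C were found by the root mean square distance of log2 RPKM over the 6 libraries, each gene centred on its mean, among the 12050 genes whose mean was 0 log2 RPKM or more. The 5 nearest were DIAPH3 (0.08), PLK1 (0.08), METTL7A (0.08), CDCA2 (0.09) and CDKN3 (0.09). PLK1 was thus rank 2 and the nearest of the set, followed by CDC25A at rank 23. CKS2 (rank 103), CDK1 (108) and WEE1 (124) came next. PKMYT1 (292), CDC25B (374) and CKS1B (420) were the farthest of the 8. These ranks are a description over 6 libraries that share their groups.

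Promoter sequence is shown because these genes moved together and several are known targets of the complexes that bind the cell cycle homology region (CHR) late in the cycle. RefSeq windows of 250 bases before to 50 after a start (GRCh38.p14) were at hand for 7 of the 9 genes, 14 windows in all, and were searched on both strands for TTTGAA, the CHR. It was found for 5 of the 7 genes, CDC25C, CDK1, PLK1, CKS1B and CKS2, and in 18.2% of 27305 genes with a window. Genes with more windows had more sequence searched. By window it was in 7 of the 14 and in 15.2% of all 35116, where windows of a gene can overlap. In 4 of the 5 genes it began 29 or 30 bases before a start. The 30 bases around it follow, 5′ to 3′ on the strand of the gene, with the match in capitals (TTCAAA is the same motif on the other strand).
CDC25C, chr5:138331817-138331846, minus strand: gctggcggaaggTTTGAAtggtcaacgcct
PLK1, chr16:23678848-23678877, plus strand: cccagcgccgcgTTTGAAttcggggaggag
CKS1B, chr1:154974639-154974668, plus strand: gcgggcggcgtgTTTGAAagcgaggccaaa
CKS2, chr9:89311154-89311183, plus strand: cgggctgtcggaTTCAAAtccggatcgttg
CDK1, chr10:60778453-60778482, plus strand: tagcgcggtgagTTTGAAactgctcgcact

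In CDC25C the match belongs to the start at 138331804, which lies 6551 bases downstream of the most upstream annotated start. The window of that upstream start held no TTTGAA but an E2F-like match. CDK1 had further matches, one of them at position -161 relative to its other start. The windows of CDC25A and CDC25B held no TTTGAA. Of the genes with TTTGAA, CDC25C, CKS2, CDK1 and PLK1 had larger decreases with both shRNAs than CDC25A and CDC25B, and CKS1B did not. With shCENPA1, PLK1 (-1.15 ± 0.12) and CDK1 (-1.16 ± 0.09) lay close to CDC25A (-1.07 ± 0.13). No window of WEE1 or PKMYT1 was at hand, and a link between TTTGAA and the size of the decrease was not tested. The related TTTAAA was found for 3 of 7 genes (14.5% of all), CDC25B, CDK1 and PLK1, and in 3 of 14 windows (12.2% of all windows).

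E2F-like letters were searched on both strands as TTCCCGC and its variants, of which the first was TTGGCGC, another was TTCGCGC and the last was TTGCCGC. A match was found for 4 of 7 genes, CDC25A, CDC25B, CDC25C and CDK1, and for 15.3% of all genes. By window it was 6 of 14, beside 13.0% of all windows. In CDC25A the match on one strand overlaps that on the other. CCAAT boxes, which often stand near a CHR, were found for 7 of 7 genes and for 39.7% of all genes with a window. They were in 10 of 14 windows, beside 34.6% of all windows. CDC25B, the phosphatase with the smallest decrease, had E2F-like matches too, at positions -145 and -91 relative to a start, which are not printed. The 2 sequences below show a match of CDC25A and a match of CDC25C, the latter from its upstream start and read on the other strand.
CDC25A, chr3:48188442-48188471, minus strand: gtggattccgtTTGGCGCcaactaggaaag
CDC25C, chr5:138338507-138338536, minus strand: atcatctggccGCGGGAAgcgaactcagga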

How the data were processed

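mRNA of 22Rv1 cells was measured by RNA-seq in 12 runs, 2 lanes of each of 6 libraries. Per the methods and processing notes, the authors used Trim Galore for trimming, STAR for alignment (hg38), HTSeq for counting and edgeR, and deposited log2 RPKM per run for 14828 genes; versions are not given in the sources used here. From the steps between values, whole reads could be recovered for 14828 of 14828 genes (largest distance from a whole read 4.6e-08, with 0.25 reads added by the authors before taking logs). The lanes of a library differed by a chi-square of 1.24 to 1.31 per gene and the libraries of a group by 26.5 to 80.1, so the library was the replicate, although the labels number the runs as replicates 1 to 4. There were 79172294 to 133074655 reads per library, and the 2 libraries per group limit the precision. Counting error depends on the reads of each gene. For CDC25C, with 362 to 548 reads in the knockdown libraries, it is not small beside the spread between libraries.

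The lane means of the 14624 genes that averaged -3 log2 RPKM or more entered limma (version 3.58.1, R 4.3.3; lmFit and trended eBayes), with all 3 groups fitted together, no covariates and Benjamini-Hochberg adjustment over the genes tested. A call needed a fold change over 2 and an adjusted p under 0.05. Percent decreases come from the difference of mean log2 RPKM. The fit was tested on simulated data. Alternatives were 0.1 or 1 added to RPKM, other filters, median-centred or quantile-normalized libraries, no trend, only the 2 groups compared, lanes as replicates or alone, a replicate block, limma-voom on the recovered reads, and each library left out. For the ratios, single lanes and each library left out were added after seeing the data. The members, lists, motifs and tests were chosen with earlier results of these data known. Named are the 9 genes, CENPA, up to 4 examples per list (in list order or with the largest mean change) and the 5 genes nearest to CDC25C; list genes named beyond that were added after their values were seen. Positions are from GENCODE 44 on GRCh38, the assembly of hg38. ChIP-seq data were not analysed here. The values of 1 marker gene are not reported here.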

Additional observations from a re-analysis of the deposited data

Results flagged for a closer look

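The test of the difference between the shRNAs passed for CDK1 (shCENPA2 less shCENPA1, log2 -0.50, adjusted p = 0.0364 from limma) and CKS2 (-0.49, adjusted p = 0.0329). For both genes the 2 shCENPA2 libraries lay below the 2 shCENPA1 libraries. Both calls were lost whenever a library was left out, when only these 2 groups were fitted and without the trend in the variance.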

How the results depend on the processing

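With 1 added to RPKM, which draws low values towards 0, 2 genes of the 9 (CDK1 and CKS2) were called lower with shCENPA1 and 2 with both shRNAs, and CDC25C (-0.92 and -0.9985) and CDC25A (-0.85 and -0.94) were past 2-fold with neither. The call of PKMYT1 with shCENPA1 was also lost with 0.1 added (-0.9996), with quantile normalization (-0.98) and without the trend in the variance (adjusted p = 0.0802). With each library left out in turn, 5 to 6 genes were called with shCENPA1, 7 with shCENPA2 and 5 to 6 with both.

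Between the shRNAs, 2 genes passed, beside 0 without the trend, 0 with only the 2 groups fitted, 6 with lanes as replicates and 0 to 1 with a library left out. The 1 was PKMYT1 without shCENPA2 library 1 (-1.03, adjusted p = 0.0135), which was then also called, so that 0 to 1 genes were past 2-fold there. CDC25B, at 0.01, ranged from -0.06 to 0.0818 with a library left out. The numbers of the libraries did not pair them (correlation of deviations at the same number -0.064, -0.095 and -0.145). With a replicate block 6, 7 and 6 genes were called with shCENPA1, with shCENPA2 and with both, and 0 passed between the shRNAs.

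Set against CDC25C, several small differences turned sign. With 0.1 added CKS2 with shCENPA1 went to -0.0016 and PLK1 with shCENPA2 to -0.0034. With 1 added, with shCENPA1 CDK1 went to -0.18, PLK1 to -0.0673 and CKS2 to -0.33 (adjusted p = 0.00563), and with shCENPA2 WEE1 went to -0.11 and PLK1 to -0.20. With a library left out, with shCENPA2 WEE1 ranged from -0.0489 to 0.18, PLK1 from -0.0185 to 0.0876 and PKMYT1 from -0.56 to 0.15. CDC25B and CKS1B fell less than CDC25C in every such fit run, with differences of 0.29 and 0.38 (CDC25B) and 0.44 and 0.22 (CKS1B) with 1 added. The log2 ratio of CKS1B to CKS2, knockdown less shNT libraries, was 0.82 to 0.88 with a library left out, beside 0.85. The cause of these shifts was not tested.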
